A study of Mus musculus with 4 samples.

Results

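The lysosome and autophagy genes of activated mouse CD4+ T cells were compared between wild-type cells and cells with an R111A mutant form of Regnase-1. The group was chosen by gene symbol and holds 51 of the 16142 genes in the table, and all 51 symbols were found. Its members were sorted into 11 classes by what their proteins do: lysosomal membrane, cathepsins, glycosidases and lipid handling, V-ATPase, transcription factors, initiation and nucleation, membrane supply, conjugation, the ATG8 family, cargo receptors and DRAM proteins.

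Lysosomes digest proteins, sugars and lipids with acid hydrolases, which need the low pH that a proton pump, the V-ATPase, maintains. In autophagy a growing membrane encloses cytoplasm, ATG8 proteins coupled to that membrane hold cargo receptors, and the closed vesicle then fuses with a lysosome. Many genes of both systems are switched on by TFEB and TFE3, whose entry into the nucleus is controlled largely by phosphorylation, and T cells use autophagy to clear organelles and to survive after activation.

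Polyadenylated RNA was sequenced from 4 libraries, 2 from WT B6 mice (WT 1 and WT 2) and 2 from Cd4CreERT2 LSL-R111A fl/fl mice (R111A 1 and R111A 2). Splenic CD4+ T cells were isolated with untouched-cell Dynabeads, sorted by FACS and activated through CD3 (antibody at 5 µg/mL) and CD28 (antibody at 1 µg/mL) over 12 h. The labels give tamoxifen at 75 mg/kg for 5 days in a sentence that names both strains, and they give neither age nor sex of these mice. The study's methods give, for its experiments in general, mice of both sexes aged 6 to 12 weeks. The mutant resists degradation, and its coding sequence sits in the Rosa26 locus behind a CAG promoter and a loxP-flanked stop cassette, joined by P2A to EGFP. The stop cassette was removed by a tamoxifen-dependent Cre under Cd4 control, so the mutant protein, EGFP and CreERT2 were present together and their effects cannot be told apart. The methods of the study describe gating GFP+ cells in mice with a GFP reporter and then sorting CD4+ cells into CD25+ and CD25- fractions, while the labels name only CD4+ T cells. Whether the libraries of a group came from different mice is not stated in the labels, so p-values measure the spread between libraries only.

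Zc3h12a, the gene of Regnase-1, was read as a check of the labels, and its level was 17.0 FPKM in WT 1, 15.7 in WT 2, 196 in R111A 1 and 131 in R111A 2. The R111A libraries were far above the WT libraries, with a log2 fold change of 3.22 (SE 0.19, adjusted p = 9.19e-06 in limma), and the table does not separate transgene from endogenous transcript. FPKM, a level scaled for gene length and library depth, summed to 801475 in WT 1, 836143 in WT 2, 1053551 in R111A 1 and 1012215 in R111A 2. The table holds no read totals, but steps among values of 0.1 to 0.6 FPKM put the depth of WT 1 at 1.02 times that of WT 2, 1.05 times that of R111A 1 and 1.18 times that of R111A 2. Members differed between replicates by a median of 0.09 log2 units in WT cells and 0.21 in R111A cells, and the same medians over all genes tested were 0.09 and 0.21.

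In R111A cells, transcripts of 4 of the 5 ATG8-family genes, the protease cathepsin S, the membrane protein Lamp2 and the cargo receptor Nbr1 were higher, while those of the lysosomal enzyme beta-glucuronidase (Gusb), acid alpha-glucosidase (Gaa) and the mitophagy receptor Bnip3 were lower. Cathepsin S mRNA stood 4.57 times as high as in WT cells by group means, and Gusb mRNA was 3.23 times as high in WT cells as in R111A cells. Of the 51 members, 49 had a mean of at least 1 FPKM and were tested with limma on log2(FPKM + 1), where a gene was called at a Benjamini-Hochberg adjusted p below 0.05 over all 9831 genes tested. Higher calls numbered 14 of 49 members (28.6%) beside 2088 of all genes tested (21.2%), and lower calls 9 of 49 (18.4%) beside 3152 of all genes (32.1%). With a 2-fold threshold added, 3 of 49 members were higher and 1 of 49 lower. Over all 9831 genes tested, 838 (8.52%) and 820 (8.34%) were. Both R111A libraries lay above both WT libraries in 27 of 49 members, beside 3150 of all 9831 genes tested (32.0%). They lay below both in 13 of 49, beside 4549 of all genes (46.3%), and the groups overlapped in 9 members. In sorted cells read in bulk, a change in the share of cells of a type and a change in RNA per cell cannot be told apart.

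**Figure D1:**
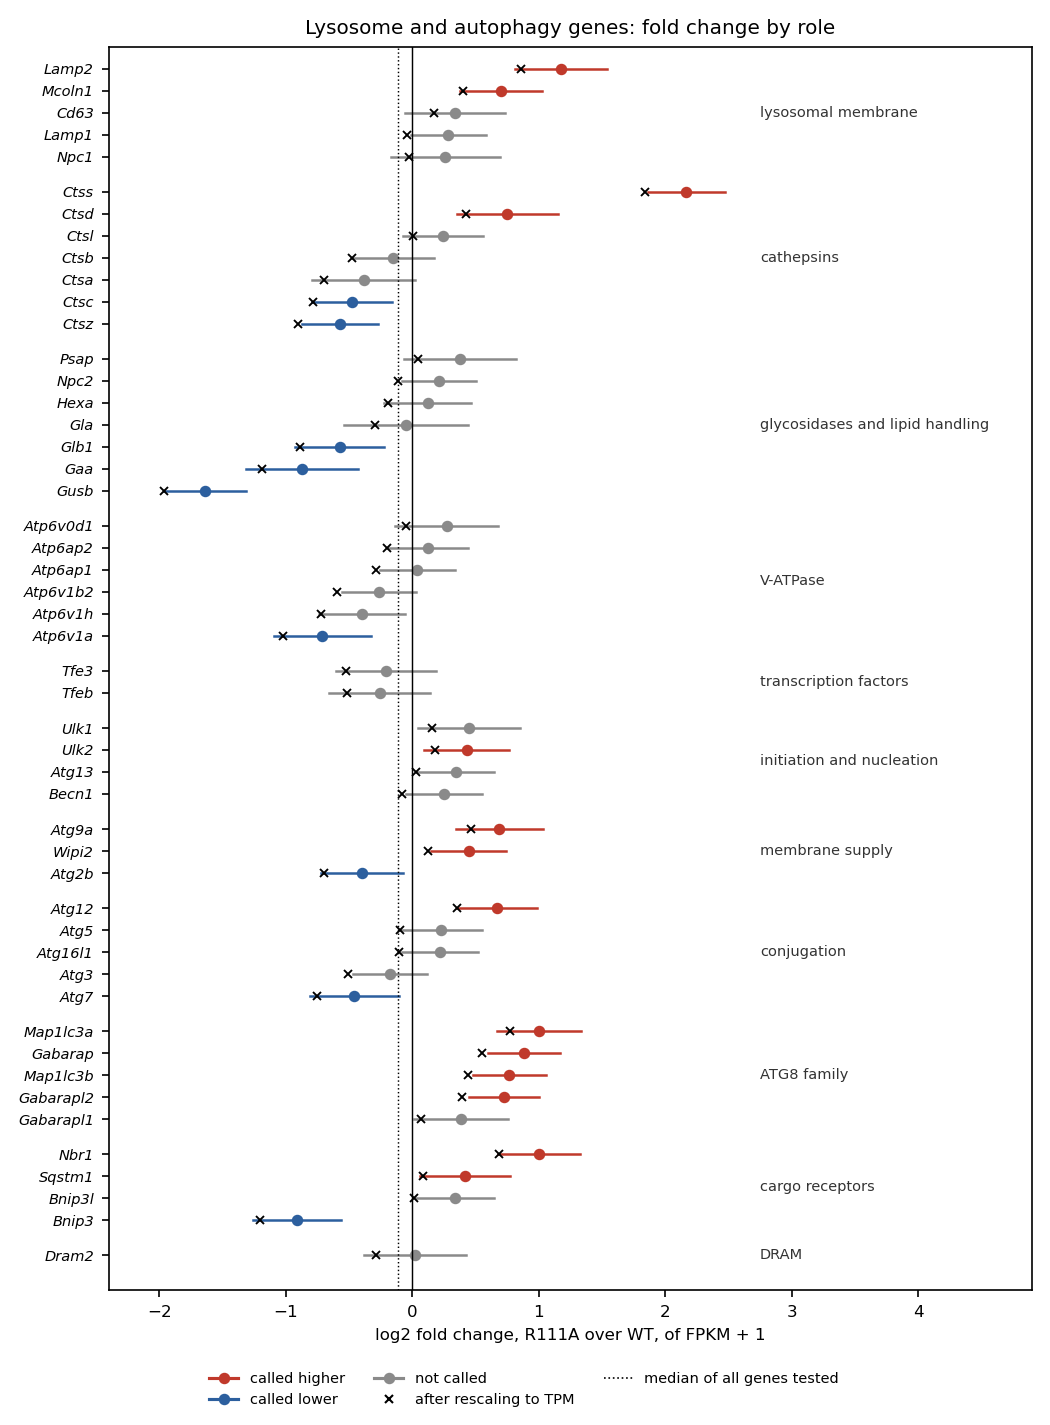
Log2 fold changes of the 49 members tested, by class, with 95% confidence intervals from limma; red marks genes called higher, blue genes called lower, crosses the same values after rescaling to TPM and the dotted line the median of all genes tested. The members run from -1.64 for Gusb to 2.17 for Ctss, and rescaling to TPM moves the members' median from 0.24 to -0.08 and all genes from -0.12 to -0.42.

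The classes of autophagy and of the lysosome differed in their counts. Among 22 tested members of the 6 autophagy classes, 10 were higher (45.5%) and 3 lower (13.6%), with 0.40 as the median log2 fold change, and with TPM 6 and 4 (27.3% and 18.2%, median 0.08). Among 25 members of the 4 lysosomal classes, which leave out the transcription factors, 4 were higher (16.0%) and 6 lower (24.0%), with a median of 0.12, and with TPM 4 and 10 (16.0% and 40.0%), where the median turned to -0.20. All genes tested were called higher in 21.2% and lower in 32.1% as deposited, and in 13.5% and 51.8% with TPM. The difference between the lysosomal and the autophagy classes was not tested. The median over all members was 0.24 beside -0.12 over all genes tested, and no test of this difference was made. Scaling moved both: after rescaling each library to the same FPKM sum (TPM), the members' median was -0.08 and that of all genes -0.42, while it was 0.33 beside -0.04 with quantile normalization and 0.32 beside -0.03 with median-of-ratios factors. The members' median therefore lay 0.36 above that of all genes with the deposited FPKM, 0.34 with TPM, 0.38 with quantile normalization and 0.35 with median-of-ratios factors. The split of calls followed the scaling, with 14 higher and 9 lower members as deposited, 10 and 16 with TPM, 20 and 7 with quantile normalization, and 19 and 7 with median-of-ratios factors. Higher genes made up 60.9% of called members as deposited, 38.5% with TPM, 73.1% under median-of-ratios scaling and 74.1% under quantile normalization, beside 39.8%, 20.7%, 47.5% and 46.9% of all called genes. Under all 3 other scalings, 10 of the 14 higher calls and 6 of the 9 lower calls were kept.

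The counts differed when 1 library was left out, beside 28.6% of members called higher and 18.4% lower with all 4 libraries. Each such fit leaves 1 library in a group, which is assumed to vary like the pair of the other group. Without an R111A library, the spread thus comes from the WT pair alone. Over all genes tested, replicates differed by a median of 0.09 log2 units in WT and 0.21 in R111A cells. Without WT 1 there were 9 higher (18.4%) and 3 lower members (6.12%), beside 14.4% and 19.9% of all genes tested, with 6 and 1 in the autophagy classes and 3 and 2 in the lysosomal classes. Without WT 2 there were 12 and 4 members (24.5% and 8.16%) beside 14.7% and 19.7% of all genes, with 7 and 1 in the autophagy and 5 and 3 in the lysosomal classes. Without R111A 1 the counts were 16 and 13 (32.7% and 26.5%) beside 25.8% and 37.6%, with 12 and 3 in the autophagy and 4 and 8 in the lysosomal classes. Without R111A 2 they were 22 and 10 (44.9% and 20.4%) beside 25.4% and 38.6%, with 13 and 2 in the autophagy and 9 and 8 in the lysosomal classes. The median log2 fold change of the lysosomal classes was 0.02 without R111A 1, 0.10 without R111A 2, 0.08 without WT 1 and 0.13 without WT 2, and that of the autophagy classes was 0.33, 0.43, 0.38 and 0.40.

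**Figure D2:**
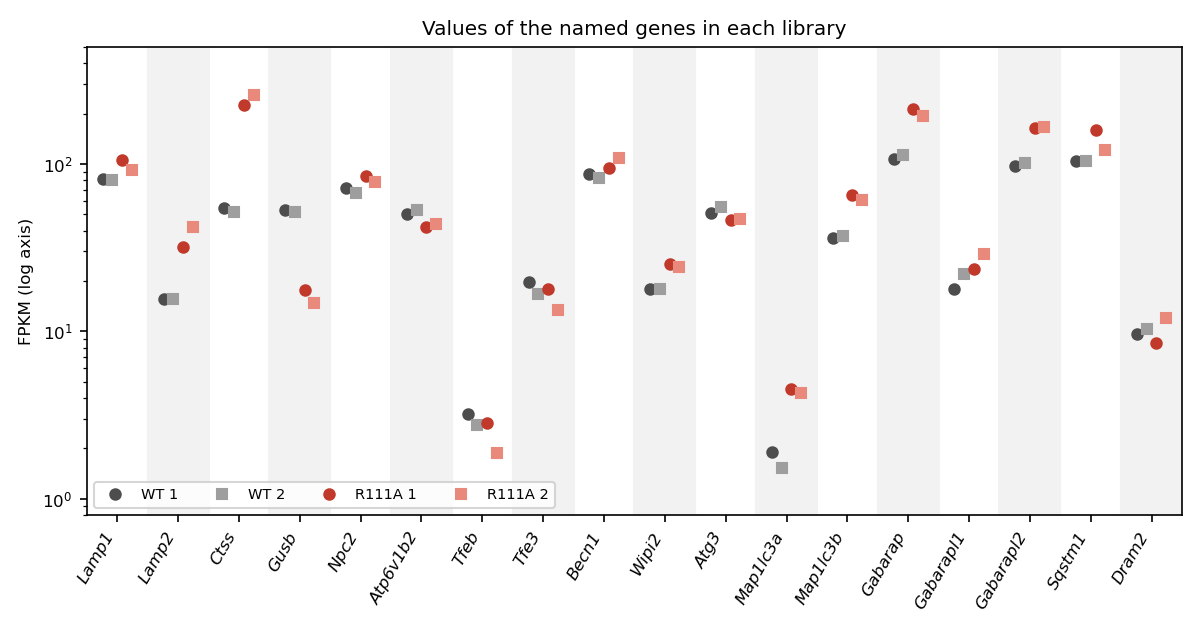
FPKM on a log axis in each of the 4 libraries for 18 named genes, with circles for replicate 1, squares for replicate 2, grey for WT and red for R111A. Ctss sits between 51.4 and 54.3 in WT and between 224 and 259 in R111A libraries, while Tfeb, Tfe3 and Dram2 overlap between the groups.

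Tfeb encodes the transcription factor best known for driving lysosomal genes, and its level was 3.19 FPKM in WT 1, 2.77 in WT 2, 2.85 in R111A 1 and 1.87 in R111A 2. Tfe3, a close relative with similar targets, was at 19.8 FPKM in WT 1, 16.7 in WT 2, 18.0 in R111A 1 and 13.5 in R111A 2. In both genes R111A 1 lay within the WT range and R111A 2 below it, so the groups overlapped. Neither was called, with log2 fold changes of -0.26 for Tfeb (95% confidence interval -0.66 to 0.14, adjusted p = 0.240 in limma) and -0.21 for Tfe3 (-0.60 to 0.18, adjusted p = 0.333 in limma). With TPM both were called lower, at -0.51 (adjusted p = 0.0233, 0.0232 to 0.758 over the alternatives) and -0.53 (adjusted p = 0.0181, 0.0181 to 0.939 over the alternatives), where the median of all genes was -0.42. Without R111A 1 both were called lower too, at -0.47 and -0.40, while without R111A 2 they were at -0.05 and -0.01 and not called. Tfe3 made up 86.1%, 85.7%, 86.3% and 87.8% of their summed FPKM in WT 1, WT 2, R111A 1 and R111A 2.

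TFEB and TFE3 are known to bind the letters CACGTG, often within TCACGTGA, and FOXO factors, which also drive autophagy genes, bind GTAAACA. These letters were sought on both strands of the RefSeq promoters of build GRCm38.p6, each 300 bases long, with 250 before and 50 after the start of a transcript. The table held 32851 promoters and covered 42 of the 51 members with 48 promoters. It had none for Npc1, Ctsb, Atp6v1b2, Atp6v1h, Becn1, Atg12, Atg16l1, Map1lc3a and Bnip3l. CACGTG lay in 7.15% of all promoters and in a promoter of 14 of the 42 members (33.3%), beside 12.5% of tested genes with a promoter. TCACGTGA, every copy of which contains CACGTG, lay in 0.974% of all promoters and in 7 of the 42 members (16.7%), beside 2.50% of tested genes. GTAAACA lay in 3.65% of all promoters, in 3.06% of tested genes and in no promoter of the 42 members. Of the 14 members with CACGTG, 2 were called higher (14.3%, beside 21.2% of all genes tested), 5 lower (35.7%, beside 32.1%) and 7 neither way. Among the 7 with TCACGTGA, Mcoln1 and Ctsd were called higher, Atp6v1a was called lower, and Atg3, Atp6v0d1, Ctsa and Gla were not called.

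Promoters of 5 members with TCACGTGA are printed so that the shared letters can be seen in genes called higher, lower and neither way, and those of Ctss and Gusb because these members differed most between the groups. Each runs 5′ to 3′ along its gene, capitals mark TCACGTGA, and all are RefSeq sequences of build GRCm38.p6. Mcoln1, a lysosomal calcium channel called higher, lies at chr8:3500269-3500568 on the forward strand. Ctsd, an aspartic protease called higher, lies at chr7:142387778-142388077 on the reverse strand. The promoter of Atp6v1a, the catalytic pump subunit called lower, is chr16:44139210-44139509 on the reverse strand. Gla, an alpha-galactosidase that was not called, has its promoter at chrX:134600956-134601255 on the reverse strand, and Ctsa, a carboxypeptidase that was not called either, at chr2:164833523-164833822 on the forward strand. The printed promoters of Atp6v1a and Ctsa belong to starts that lie 443 and 901 bases inside the gene as annotated, and the other 5 to the annotated gene start. The promoter of Ctss is chr3:95526536-95526835 on the forward strand and that of Gusb chr5:130003000-130003299 on the reverse strand.
Mcoln1: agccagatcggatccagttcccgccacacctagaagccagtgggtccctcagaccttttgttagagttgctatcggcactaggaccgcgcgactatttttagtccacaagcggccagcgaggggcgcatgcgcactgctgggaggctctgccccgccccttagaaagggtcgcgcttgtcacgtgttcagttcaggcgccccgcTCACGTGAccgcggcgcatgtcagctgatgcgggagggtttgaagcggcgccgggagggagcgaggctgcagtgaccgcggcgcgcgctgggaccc
Ctsd: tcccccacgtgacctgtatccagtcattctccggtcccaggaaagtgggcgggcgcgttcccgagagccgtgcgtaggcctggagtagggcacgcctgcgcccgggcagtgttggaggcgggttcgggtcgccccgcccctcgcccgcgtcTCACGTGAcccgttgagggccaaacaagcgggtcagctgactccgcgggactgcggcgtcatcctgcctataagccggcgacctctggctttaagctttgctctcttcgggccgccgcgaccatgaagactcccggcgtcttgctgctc
Atp6v1a: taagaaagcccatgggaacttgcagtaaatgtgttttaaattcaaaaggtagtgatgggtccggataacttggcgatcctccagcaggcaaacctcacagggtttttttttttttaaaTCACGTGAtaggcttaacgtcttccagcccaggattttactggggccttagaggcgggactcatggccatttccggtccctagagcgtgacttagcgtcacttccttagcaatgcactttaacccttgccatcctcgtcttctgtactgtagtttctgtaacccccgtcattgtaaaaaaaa
Gla: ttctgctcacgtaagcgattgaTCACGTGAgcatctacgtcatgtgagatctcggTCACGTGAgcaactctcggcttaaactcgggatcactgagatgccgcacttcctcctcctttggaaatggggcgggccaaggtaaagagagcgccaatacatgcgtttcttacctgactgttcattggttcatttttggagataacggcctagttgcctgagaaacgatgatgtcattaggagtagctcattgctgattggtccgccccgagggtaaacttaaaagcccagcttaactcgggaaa
Ctsa: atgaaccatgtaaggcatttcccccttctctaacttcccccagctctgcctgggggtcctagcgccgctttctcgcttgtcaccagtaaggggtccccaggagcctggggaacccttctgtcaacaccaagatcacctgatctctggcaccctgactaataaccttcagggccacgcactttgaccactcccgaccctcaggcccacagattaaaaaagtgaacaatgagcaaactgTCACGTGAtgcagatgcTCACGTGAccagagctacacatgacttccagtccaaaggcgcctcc
Ctss: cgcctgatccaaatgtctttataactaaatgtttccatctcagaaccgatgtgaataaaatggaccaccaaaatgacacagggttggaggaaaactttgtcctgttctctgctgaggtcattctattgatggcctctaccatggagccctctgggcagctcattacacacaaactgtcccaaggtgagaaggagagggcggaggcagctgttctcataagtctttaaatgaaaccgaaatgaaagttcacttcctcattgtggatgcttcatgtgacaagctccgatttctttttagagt
Gusb: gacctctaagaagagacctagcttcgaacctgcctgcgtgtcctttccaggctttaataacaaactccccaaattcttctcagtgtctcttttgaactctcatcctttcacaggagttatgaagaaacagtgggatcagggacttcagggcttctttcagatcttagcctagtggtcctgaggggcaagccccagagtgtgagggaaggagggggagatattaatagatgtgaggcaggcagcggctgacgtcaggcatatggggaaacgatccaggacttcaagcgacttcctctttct
Gla and Ctsa hold TCACGTGA 2 times, while Mcoln1, Ctsd and Atp6v1a hold it 1 time. The promoters of Ctss and Gusb hold neither TCACGTGA nor CACGTG in these 300 bases. A match describes letters only, and binding was not measured.

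Of the 5 lysosomal membrane genes, 2 were called higher (40%) and none lower, with a median log2 fold change of 0.34. Shares over all genes tested were 21.2% higher and 32.1% lower. Lamp2, a major membrane glycoprotein, a form of which is the receptor of chaperone-mediated autophagy (NCBI gene 16784, chrX:38399647-38456460), was at 15.7 FPKM in WT 1, 15.6 in WT 2, 31.9 in R111A 1 and 41.9 in R111A 2. These values are by gene, so forms of Lamp2 were not told apart. The WT libraries were nearly equal and both R111A libraries were above them, with R111A 2 the higher of the pair. Its log2 fold change was 1.17 (SE 0.16, 95% confidence interval 0.81 to 1.54, adjusted p = 0.000440 in limma), and it was called under all 13 alternatives. Lamp1, its more abundant relative, stood at 81.0 FPKM in WT 1, 80.2 in WT 2, 106 in R111A 1 and 91.9 in R111A 2, so the groups did not overlap, but it was not called (log2 fold change 0.29, adjusted p = 0.0944 in limma). With TPM the Lamp1 value was -0.04, and median-of-ratios factors, quantile normalization and leaving out R111A 2 called it higher (0.39), with 0.19 and no call without R111A 1. The ratio of Lamp2 to Lamp1, which multiplying a library by a factor cannot move, was 0.194 in both WT libraries, 0.302 in R111A 1 and 0.455 in R111A 2.

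Mcoln1, the calcium channel whose promoter is printed, was at 7.43 FPKM in WT 1, 8.26 in WT 2, 14.0 in R111A 1 and 12.7 in R111A 2. Each R111A library was above each WT library (log2 fold change 0.70, SE 0.14, adjusted p = 0.00345 in limma). This call was lost without WT 1, at 0.63 with an adjusted p of 0.0766 (0.000203 to 0.0766 over the alternatives). Npc1, which exports cholesterol from lysosomes, and Cd63, a tetraspanin, were not called, at log2 fold changes of 0.26 and 0.34. They were called higher without R111A 2 (Npc1, 0.51) and without WT 2 (Cd63, 0.56), but were at 0.01 without R111A 1 (Npc1) and 0.12 without WT 1 (Cd63), and Npc1 was at -0.02 with TPM.

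The 7 cathepsins, proteases of the lysosome, were divided, with 2 called higher and 2 lower. Each count is 28.6% of the class, beside 21.2% higher and 32.1% lower over all genes tested. Cathepsin S, an endopeptidase known for trimming the invariant chain of MHC class II (NCBI gene 13040, chr3:95526786-95556405), was at 54.3 FPKM in WT 1, 51.4 in WT 2, 224 in R111A 1 and 259 in R111A 2. The WT libraries lay close together and both R111A libraries were more than 4 times as high as either. Its log2 fold change was 2.17 (SE 0.13, 95% confidence interval 1.87 to 2.47, adjusted p = 1.01e-05 in limma), the highest among the members tested, and it was called under all 13 alternatives. Ctsd, the aspartic protease of most lysosomes, was at 57.6 FPKM in WT 1, 53.0 in WT 2, 112 in R111A 1 and 78.7 in R111A 2. The R111A libraries were the higher ones, R111A 1 by more (log2 fold change 0.75, SE 0.17, adjusted p = 0.00683 in limma), and all 13 alternatives kept the call.

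Ctsz, a carboxypeptidase and the most abundant cathepsin of the WT libraries, was at 74.5 FPKM in WT 1, 74.6 in WT 2, 53.2 in R111A 1 and 46.6 in R111A 2. The R111A libraries were the lower ones, and its log2 fold change was -0.57 (SE 0.13, adjusted p = 0.00639 in limma). Ctsc, which activates granzymes by cutting dipeptides from them, was also called lower (-0.48, adjusted p = 0.0192 in limma). Without WT 1 and without WT 2, where a lone WT library is assumed to vary like the others, neither gene was called. The log2 fold changes were then -0.57 and -0.57 for Ctsz and -0.43 and -0.52 for Ctsc, about as large as with all libraries. Ctsz was not called with quantile normalization either, at -0.35. Ctsa, Ctsb and Ctsl were not called, at log2 fold changes of -0.38, -0.15 and 0.24, but TPM called Ctsa (-0.70) and Ctsb (-0.47) lower, as did leaving out R111A 1 (-0.61 and -0.27) and, for Ctsa, the replicate block (-0.38). Without R111A 2 neither was called, at -0.16 and -0.02.

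Within the class the make-up of cathepsin mRNA differed between the groups. Ctss supplied 22.1% and 22.0% of the class's summed FPKM in WT 1 and WT 2 and 50.8% and 60.5% in R111A 1 and R111A 2. Ctsz supplied 30.3%, 31.9%, 12.0% and 10.9% in the same order, and Ctsb 12.9%, 12.9%, 6.88% and 5.93%. Ctsd kept a share of 23.5%, 22.6%, 25.3% and 18.4%, in which the groups overlapped. The summed level of the class was 245, 234, 442 and 428 FPKM. For such single values, an exact permutation test of 2 libraries against 2 cannot go below a two-sided p of 0.333, so none was made.

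**Figure D3:**
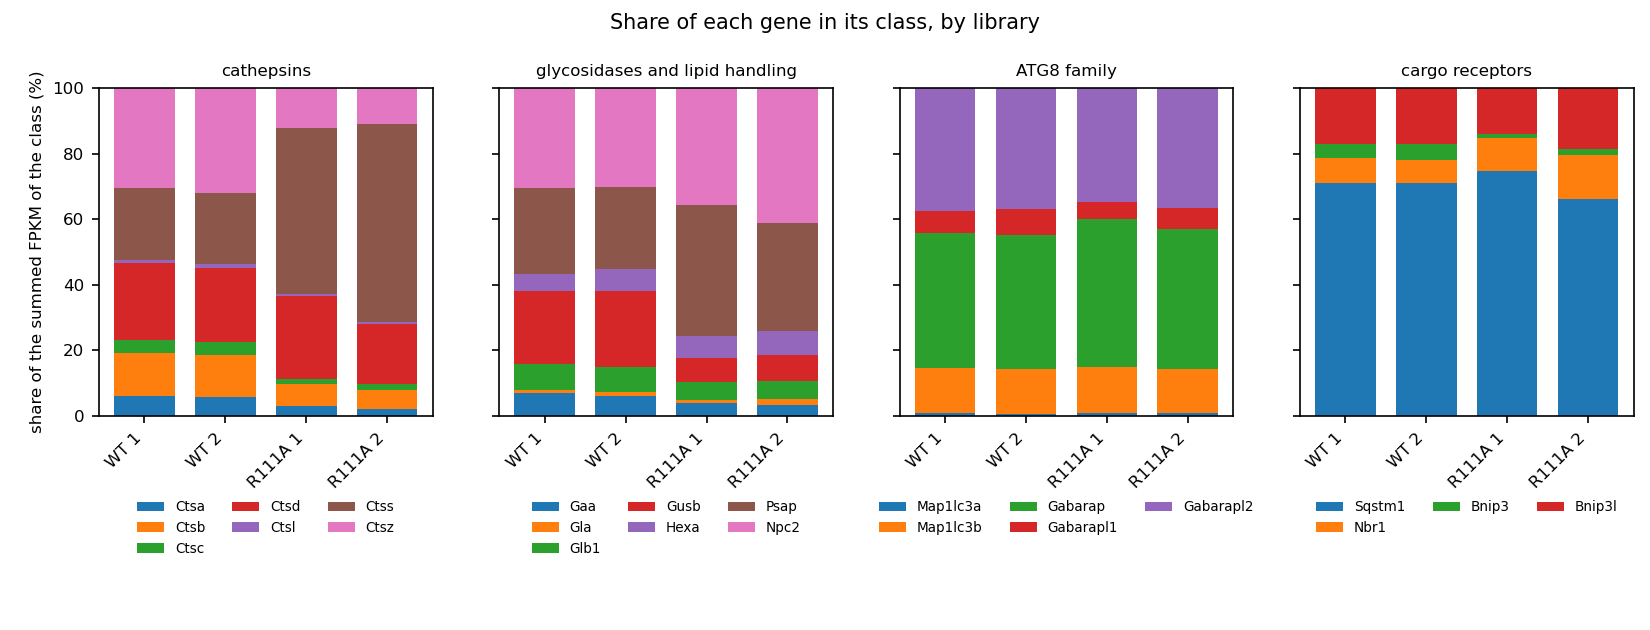
Share of each gene in the summed FPKM of its class in the 4 libraries, for cathepsins, glycosidases and lipid handling, the ATG8 family and cargo receptors. Ctss takes 22.1% and 22.0% of cathepsin FPKM in WT and 50.8% and 60.5% in R111A libraries, while Gabarap lies between 41.0% and 45.2% of the ATG8 family, higher in both R111A libraries.

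Cathepsin S is also abundant in macrophages and dendritic cells, and the markers of such cells were read in each library. Of 14 myeloid markers, 10 had a higher mean in R111A libraries, 4 were tested and 2 (Lyz2 and Fcer1g) were called higher. Tyrobp, which was tested too, was at 2.94 FPKM in WT 1, 0.63 in WT 2, 0.85 in R111A 1 and 0.97 in R111A 2. Its groups overlapped and it was not called (log2 fold change -0.41), but the replicate block called it lower. The list summed to 86.4, 86.5, 101 and 117 FPKM in WT 1, WT 2, R111A 1 and R111A 2, and its most abundant gene, Cst3, made up most of that at 81.0 FPKM in WT 1, 83.2 in WT 2, 88.0 in R111A 1 and 108 in R111A 2. Without Cst3 the sums were 5.42, 3.28, 12.9 and 9.55 FPKM. S100a9 was listed at 0 in every library, 7 of the 14 were under 1 FPKM in every library, and Csf1r was at 0.03 FPKM in WT 1, 0.05 in WT 2, 0.07 in R111A 1 and 0.07 in R111A 2. Lyz2, an enzyme of macrophages and granulocytes, was at 0.45 FPKM in WT 1, 0 in WT 2, 3.01 in R111A 1 and 2.37 in R111A 2. With no filter, Adgre1, Fcgr3 and Itgam were called higher and Mpeg1 lower. Mpeg1 was at 0.70 FPKM in WT 1, 0.73 in WT 2, 0.37 in R111A 1 and 0.33 in R111A 2. Adgre1 was at 0.04 FPKM in WT 1, 0.04 in WT 2, 0.77 in R111A 1 and 1.04 in R111A 2, Fcgr3 at 0.05 FPKM in WT 1, 0.05 in WT 2, 1.44 in R111A 1 and 0.76 in R111A 2 and Itgam at 0 FPKM in WT 1, 0.03 in WT 2, 0.54 in R111A 1 and 0.39 in R111A 2. Cd68, a lysosomal membrane protein of macrophages that is in the wider set and was chosen after its values were seen, was at 1.54 FPKM in WT 1, 0.78 in WT 2, 8.89 in R111A 1 and 6.81 in R111A 2 (log2 fold change 2.05, adjusted p = 8.38e-05 in limma). The ratio of Ctss to Cst3 was 0.671, 0.618, 2.55 and 2.4, higher in both R111A libraries. Cst3 was far above the other myeloid markers in each library, so it need not follow them. This ratio therefore decides nothing about Ctss. The ratio of Ctss to Lyz2 was 121 in WT 1, 74.6 in R111A 1 and 109 in R111A 2, with Lyz2 at 0 in WT 2. That of Ctss to Fcer1g was 84.9, 64.3, 72.9 and 93.2, with the groups overlapping. Lyz2 and Fcer1g were picked because they were called higher, so these 2 ratios decide nothing about Ctss. The part of myeloid cells in the Ctss result was not tested.

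**Figure D4:**
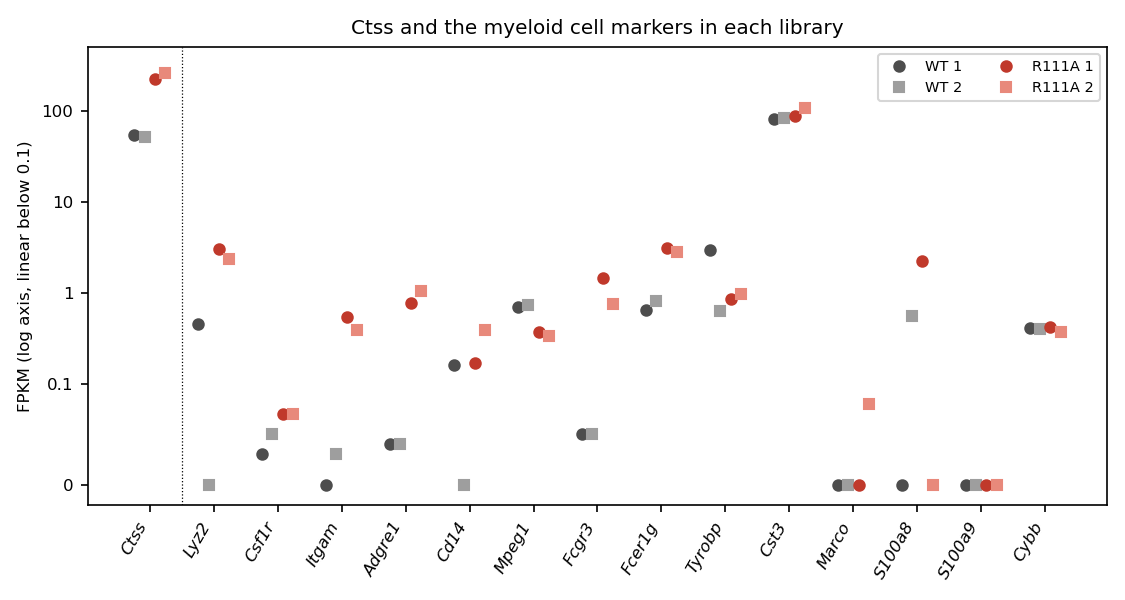
FPKM of Ctss and of 14 myeloid markers in each library, on an axis that is linear near 0 and logarithmic above. Ctss and Cst3 lie above 50 FPKM in all 4 libraries, and the other markers lie far lower, with S100a9 at 0.

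No gene of the glycosidase and lipid-handling class was called higher, and 3 of its 7 were called lower (42.9%). Over all genes tested, 21.2% were called higher and 32.1% lower. Beta-glucuronidase, which removes glucuronic acid from glycosaminoglycans (Gusb, NCBI gene 110006, chr5:129989011-130003049), was at 53.0 FPKM in WT 1, 51.7 in WT 2, 17.7 in R111A 1 and 14.8 in R111A 2. The replicates of each group were close and both R111A libraries were far below both WT libraries. Its log2 fold change was -1.64 (SE 0.14, 95% confidence interval -1.96 to -1.31, adjusted p = 4.32e-05 in limma), the lowest among the members tested, and it was called under all 13 alternatives. Its share of the FPKM of its class was 22.4% and 23.2% in WT 1 and WT 2 and 7.46% and 7.84% in R111A 1 and R111A 2.

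Gaa, which degrades glycogen in lysosomes, was at 16.3 FPKM in WT 1, 13.2 in WT 2, 9.18 in R111A 1 and 6.21 in R111A 2. Both R111A libraries were below both WT libraries, with a log2 fold change of -0.87 (SE 0.19, adjusted p = 0.00558 in limma) that was called under all 13 alternatives. Glb1, a beta-galactosidase, was called lower as well (-0.57, adjusted p = 0.0134 in limma), but not without WT 1 (-0.53) or without WT 2 (-0.62). The most abundant genes of the class were not called. Npc2, which hands cholesterol to Npc1, was at 71.9 FPKM in WT 1, 67.1 in WT 2, 84.3 in R111A 1 and 77.5 in R111A 2, with the groups apart (log2 fold change 0.22, adjusted p = 0.185 in limma). It was at -0.11 with TPM and was called higher with quantile normalization and without R111A 2 (0.28). Psap, the precursor of the saposins that present lipids to enzymes, was at 61.7 FPKM in WT 1, 56.2 in WT 2, 94.8 in R111A 1 and 62.1 in R111A 2. R111A 1 stood clear of the WT libraries and R111A 2 lay just above WT 1 (log2 fold change 0.38, adjusted p = 0.133 in limma), and Psap was called higher with quantile normalization (0.60), with the replicate block (0.38) and without R111A 2 (0.68), but not without R111A 1 (0.08). Hexa and Gla, which cut sugars from glycolipids, had log2 fold changes of 0.12 and -0.05, and their groups overlapped. The sign of Hexa turned with TPM (-0.19), and that of Gla with median-of-ratios factors (0.02), without WT 2 (0.08) and without R111A 1 (0.27).

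Of the 6 V-ATPase genes, 1 was called lower (16.7%) and none higher, beside 32.1% lower and 21.2% higher over all genes tested. Atp6v1b2, a subunit of the ATP-driven head and the most abundant member of the class, was at 50.0 FPKM in WT 1, 52.8 in WT 2, 41.8 in R111A 1 and 43.7 in R111A 2. Both R111A libraries were below both WT libraries, but the gene was not called (log2 fold change -0.26, adjusted p = 0.114 in limma). TPM called it lower (-0.59), and so did leaving out R111A 2 (-0.29). Atp6v1a, the catalytic subunit of the head, was at 14.8 FPKM in WT 1, 13.6 in WT 2, 7.07 in R111A 1 and 9.64 in R111A 2. Each R111A library was below each WT library (log2 fold change -0.71, SE 0.17, adjusted p = 0.00724 in limma), and the call was lost without WT 1 (adjusted p = 0.0642, 0.000158 to 0.0642 over the alternatives). Atp6v1h, a regulatory subunit of the head, had a log2 fold change of -0.40 (adjusted p = 0.0512 in limma) and was called lower with the filter at a mean of 5 FPKM, with the replicate block (both -0.40), with TPM (-0.72) and without R111A 2 (-0.55), but not without R111A 1 (-0.24). The membrane-sector subunit Atp6v0d1 and the accessory proteins Atp6ap1 and Atp6ap2 had log2 fold changes of 0.27, 0.04 and 0.12, which TPM turned to -0.05, -0.29 and -0.20. Without R111A 2, Atp6v0d1 was called higher (0.51), and without R111A 1 the values were 0.03 for Atp6v0d1 and -0.01 for Atp6ap1. The class as a whole summed to 201, 202, 180 and 186 FPKM in WT 1, WT 2, R111A 1 and R111A 2.

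On the autophagy side, all 4 genes of initiation and nucleation had both R111A libraries above both WT libraries, and 1 was called higher (25%). Over all genes tested, 32.0% had both R111A libraries above both WT libraries and 21.2% were called higher. Becn1, a subunit of the lipid kinase complex that marks the new membrane, was at 87.3 FPKM in WT 1, 83.0 in WT 2, 94.9 in R111A 1 and 109 in R111A 2 (log2 fold change 0.25, adjusted p = 0.138 in limma). Its value was -0.08 with TPM, and it was called higher with quantile normalization and without R111A 1 (0.35), but not without R111A 2 (0.16). Ulk2, a kinase that starts autophagy, was the gene called, at a log2 fold change of 0.43 (adjusted p = 0.0354 in limma). That call was lost with no filter, with TPM, with quantile normalization and without WT 1, WT 2 or R111A 1, where adjusted p were 0.179, 0.234 and 0.0501 (0.00920 to 0.342 over the alternatives). Ulk1, the related kinase, and its partner Atg13 were not called, at 0.45 and 0.34. Median-of-ratios factors and leaving out R111A 2 called both higher (0.67 and 0.39), as did the replicate block (0.45) for Ulk1, and quantile normalization and leaving out R111A 1 (0.30) for Atg13. Without R111A 1, Ulk1 was at 0.22 and not called.

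Of the 4 membrane-supply genes, 2 were called higher, 1 was called lower and 1 was not tested. These calls are 66.7% and 33.3% of the 3 tested, beside 21.2% and 32.1% of all genes. Wipi2, which binds the marked membrane and recruits the conjugation machinery, was at 17.9 FPKM in WT 1, 17.8 in WT 2, 25.1 in R111A 1 and 24.3 in R111A 2. The replicates were close and the groups apart, with a log2 fold change of 0.45 (SE 0.13, adjusted p = 0.0188 in limma). The call was lost with TPM (0.13), without WT 1 (adjusted p = 0.225) and without WT 2 (adjusted p = 0.227), with 0.00783 to 0.463 over the alternatives. Atg9a, the scramblase whose vesicles seed the membrane, was at 1.59 FPKM in WT 1, 1.78 in WT 2, 3.72 in R111A 1 and 2.96 in R111A 2. Both R111A libraries were above both WT libraries, and every alternative that tested it kept the call (log2 fold change 0.69, SE 0.15, adjusted p = 0.00509 in limma). Atg2b, which transfers lipid into the membrane, was called lower (-0.39, adjusted p = 0.0444 in limma). The call was lost when no filter was set, under median-of-ratios factors, under quantile normalization, without WT 1 (adjusted p = 0.432) and without WT 2 (adjusted p = 0.196), with 0.00228 to 0.432 over the alternatives. Wipi1, at 0.04 FPKM in WT 1, 0.11 in WT 2, 0.15 in R111A 1 and 0.09 in R111A 2, was under the filter.

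The conjugation genes, which couple ATG8 proteins to lipid, gave 1 higher and 1 lower call among 5. Each is 20% of the class, beside 21.2% higher and 32.1% lower over all genes tested. Atg3, the E2-like enzyme that transfers ATG8 to lipid, was at 50.7 FPKM in WT 1, 55.4 in WT 2, 46.5 in R111A 1 and 47.2 in R111A 2. Both R111A libraries were below both WT libraries, but the gene was not called (log2 fold change -0.17, adjusted p = 0.277 in limma), it was called lower with TPM (-0.50), and its value was 0.03 with quantile normalization. Atg12, a ubiquitin-like protein joined to Atg5, was at 13.7 FPKM in WT 1, 14.2 in WT 2, 21.4 in R111A 1 and 24.3 in R111A 2. The groups did not overlap, with the R111A libraries higher (log2 fold change 0.67, SE 0.14, adjusted p = 0.00384 in limma). Its call was lost with TPM (adjusted p = 0.0620) and without WT 1 (adjusted p = 0.0679), with 0.000241 to 0.0679 over the alternatives. Atg7, the E1-like enzyme that activates ATG8 proteins and Atg12, was called lower (-0.46, adjusted p = 0.0334 in limma). The Atg7 call was lost when no filter was set, under median-of-ratios factors, without WT 1 (adjusted p = 0.325), without WT 2 (adjusted p = 0.113) and without R111A 2 (adjusted p = 0.0592), with 0.00179 to 0.325 over the alternatives. Atg5 and Atg16l1, the partners of Atg12, were not called, at 0.23 and 0.22, and TPM turned both to -0.10.

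The ATG8 family, the small proteins that coat the autophagosome, held the most higher calls of any class. All 5 genes had both R111A libraries above both WT libraries, beside 32.0% of all genes tested. Of the 5, 4 were called higher, beside 21.2% of all genes. Every log2 fold change of the family stayed positive under each scaling. Gabarap, the most abundant (NCBI gene 56486, chr11:69991370-69994949), was at 107 FPKM in WT 1, 112 in WT 2, 212 in R111A 1 and 194 in R111A 2. Gabarapl2, which is almost as abundant, was at 97.2 FPKM in WT 1, 101 in WT 2, 164 in R111A 1 and 165 in R111A 2. In each gene the replicates were close and the groups lay far apart. The log2 fold changes were 0.88 for Gabarap (SE 0.13, adjusted p = 0.000571 in limma) and 0.73 for Gabarapl2 (SE 0.12, adjusted p = 0.00128 in limma).

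Map1lc3b, whose lipid-bound protein is the usual marker of autophagosomes, was at 36.3 FPKM in WT 1, 37.2 in WT 2, 65.5 in R111A 1 and 61.2 in R111A 2. Map1lc3a, its low-abundance relative (NCBI gene 66734, chr2:155276364-155278073), was at 1.89 FPKM in WT 1, 1.53 in WT 2, 4.55 in R111A 1 and 4.28 in R111A 2. In both genes the replicates were close and the groups apart, with log2 fold changes of 0.77 (SE 0.13, adjusted p = 0.00123 in limma) and 1.00 (SE 0.14, adjusted p = 0.000616 in limma). The 4 calls were kept under every alternative that tested the gene. Map1lc3a, which was not tested with the filter at a mean of 5 FPKM, lay just over the 2-fold threshold, at 1.0014. It was under that threshold with TPM (0.77) and with quantile normalization (0.92). Gabarapl1 was at 17.8 FPKM in WT 1, 22.1 in WT 2, 23.7 in R111A 1 and 29.0 in R111A 2, and R111A 1 lay just above WT 2. It was not called (log2 fold change 0.39, SE 0.16, adjusted p = 0.0743 in limma), although the replicate block, quantile normalization, median-of-ratios factors and leaving out R111A 1 (0.53) each called it higher. Without R111A 2 and without WT 1 it was at 0.25 and 0.24 and not called.

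With TPM the log2 fold changes of Gabarap, Gabarapl2, Map1lc3b and Map1lc3a were 0.55, 0.40, 0.44 and 0.77, beside a median of -0.42 over all genes tested. The family summed to 260 and 274 FPKM in WT 1 and WT 2 and to 470 and 454 FPKM in R111A 1 and R111A 2, which is 0.0325%, 0.0328%, 0.0446% and 0.0448% of all FPKM. Gabarap supplied 41.1%, 41.0%, 45.2% and 42.7%, more in both R111A libraries, and Gabarapl2 37.4%, 36.8%, 34.9% and 36.5%, less in both. Map1lc3b supplied 14.0%, 13.6%, 13.9% and 13.5%, in which the groups overlapped. Map1lc3a supplied 0.726%, 0.558%, 0.968% and 0.943%, more in both R111A libraries, and Gabarapl1 6.85%, 8.05%, 5.05% and 6.40%, less in both. Among the cathepsins, Ctss took a larger and Ctsz a smaller share in both R111A libraries.

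Of the 4 cargo receptors, 2 were called higher (50%) and 1 lower (25%), beside 21.2% and 32.1% of all genes tested. Sqstm1 (p62), which carries ubiquitin-tagged cargo to ATG8 proteins, was at 104 FPKM in WT 1, 104 in WT 2, 160 in R111A 1 and 121 in R111A 2. The WT libraries were nearly equal and R111A 1 stood higher than R111A 2, and the log2 fold change was 0.42 (SE 0.15, adjusted p = 0.0483 in limma). The call was lost under 7 of the 13 alternatives, with 0.09 under TPM and adjusted p of 0.212, 0.204 and 0.0623 without WT 1, WT 2 and R111A 1 (0.00263 to 0.631 over the alternatives). Nbr1, a receptor of similar build, was at 11.3 FPKM in WT 1, 10.7 in WT 2, 21.4 in R111A 1 and 24.8 in R111A 2. Both R111A libraries were above both WT libraries, and its log2 fold change of 1.00, before rounding, lay just under the 2-fold threshold (SE 0.14, adjusted p = 0.000572 in limma), with the call kept under all 13 alternatives. By group means of FPKM, without the added 1 FPKM, Nbr1 was 2.09 times as high in R111A cells as in WT cells.

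Bnip3 and Bnip3l, receptors on mitochondria that are due for removal, gave 1 call. Bnip3 was at 6.34 FPKM in WT 1, 6.88 in WT 2, 2.69 in R111A 1 and 3.43 in R111A 2. The groups did not overlap, with the R111A libraries lower (log2 fold change -0.91, SE 0.15, adjusted p = 0.00133 in limma), and every alternative that tested it kept the call. By group means of FPKM, Bnip3 was 2.16 times as high in WT cells as in R111A cells. Bnip3l was not called (log2 fold change 0.34, adjusted p = 0.0598 in limma), but median-of-ratios factors, quantile normalization and leaving out R111A 1 (0.42) or R111A 2 (0.26) called it higher. The ratio of Bnip3l to Bnip3 was 3.91 and 3.65 in WT 1 and WT 2 and 11.2 and 9.86 in R111A 1 and R111A 2. Dram2, a lysosomal membrane protein of the class named after a p53 target, was at 9.64 FPKM in WT 1, 10.4 in WT 2, 8.55 in R111A 1 and 12.1 in R111A 2. Its groups overlapped, and it was not called (log2 fold change 0.02, adjusted p = 0.926 in limma), with signs turned by TPM (-0.28) and by leaving out WT 1 (-0.03) or R111A 2 (-0.20). Dram1, with a mean under 1 FPKM, was at 0.29 FPKM in WT 1, 0.20 in WT 2, 1.05 in R111A 1 and 0.82 in R111A 2. It was tested with no filter only, where it was called higher (log2 fold change 0.63, adjusted p = 0.00884 in limma). By group means of FPKM, Dram1 was 3.82 times as high in R111A cells as in WT cells.

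Among the members with values in each library, Mcoln1, Ctsd, Ctsz, Gaa, Psap, Atp6v1a, Atg9a, Atg12, Nbr1, Bnip3, Wipi1 and Dram1 were chosen after their values were seen.

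A wider set of 136 lysosome and autophagy genes outside the group gave 39 higher and 23 lower calls among 126 tested, or 31.0% and 18.3% beside 21.2% and 32.1% of all genes tested, and its median log2 fold change was 0.08. With TPM these counts were 21 and 49, or 16.7% and 38.9% beside 13.5% and 51.8% of all genes, and the median was -0.24 beside -0.42. Without WT 1 the counts were 22 and 11 (17.5% and 8.73%, beside 14.4% and 19.9% of all genes), and without WT 2 they were 23 and 10 (18.3% and 7.94%, beside 14.7% and 19.7%). They were 43 and 25 without R111A 1, where the median was 0.04, and 47 and 30 without R111A 2, beside 25.8% and 37.6% and 25.4% and 38.6% of all genes. As deposited, other lysosomal hydrolases and cofactors had 9 higher and 9 lower of 32 tested, lysosomal membrane and sorting genes 10 and 4 of 24, other V-ATPase subunits 3 and 3 of 12, and nutrient-sensing genes at the lysosome 7 and 3 of 21. Of the other V-ATPase subunits, TPM called Atp6v1d higher and Atp6v0a2, Atp6v0e, Atp6v1c1, Atp6v1g2 and Tcirg1 lower. Among autophagy lists, initiation and membrane supply had 4 higher and 2 lower of 14, ATG8 conjugation and processing 0 and 2 of 5, and cargo receptors and fusion 6 and 0 of 18. TPM called Rb1cc1 higher and Nrbf2, Pik3r4, Uvrag, Vmp1 and Wdr45b lower in the first, and Atg10, Atg16l2 and Atg4d lower in the second. In the third it called Calcoco1 and Tecpr1 higher and Epg5, Rab7, Snap29, Vamp8 and Vps39 lower. With TPM, lower calls outnumbered higher calls in every list except lysosomal membrane and sorting.

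**Figure D5:**
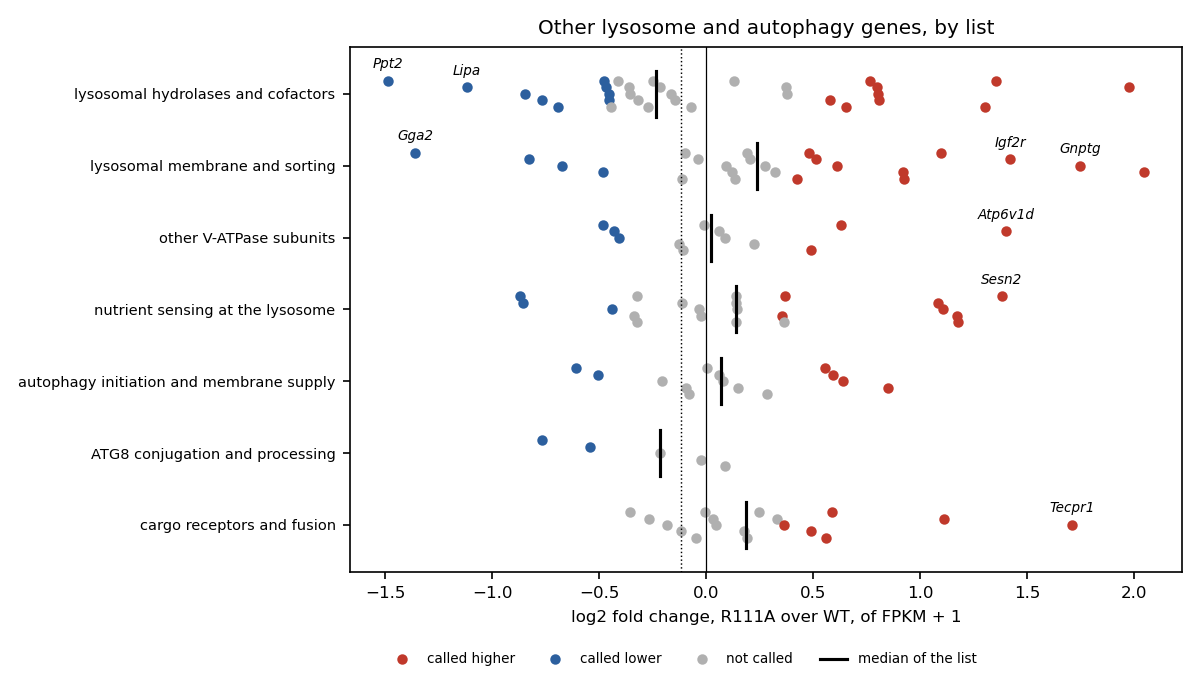
Log2 fold changes of the tested genes of 7 further lists of lysosome and autophagy genes, 1 point a gene, with the median of each list. Medians run from -0.23 for hydrolases to 0.24 for membrane and sorting genes, beside -0.12 (dotted line) over all genes tested, before the shift that TPM brings.

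Gnptg, a subunit of the enzyme that tags hydrolases for delivery to lysosomes, was at 25.1 FPKM in WT 1, 27.3 in WT 2, 98.8 in R111A 1 and 82.7 in R111A 2. Igf2r, the receptor that carries tagged hydrolases, was at 10.2 FPKM in WT 1, 9.05 in WT 2, 29.2 in R111A 1 and 25.7 in R111A 2. Both rose, with no overlap between groups and log2 fold changes of 1.75 (adjusted p = 3.27e-05 in limma) and 1.42 (adjusted p = 9.31e-05 in limma). Tecpr1, which tethers autophagosomes to lysosomes, was at 8.61 FPKM in WT 1, 7.90 in WT 2, 33.6 in R111A 1 and 25.5 in R111A 2 (log2 fold change 1.71, adjusted p = 7.14e-05 in limma). Sesn2, a leucine sensor upstream of mTORC1, was at 3.89 FPKM in WT 1, 3.43 in WT 2, 12.9 in R111A 1 and 9.60 in R111A 2 (log2 fold change 1.38, adjusted p = 0.000259 in limma). Both genes had both R111A libraries well above both WT libraries. Atp6v1d, the central shaft of the V-ATPase head, was at 43.2 FPKM in WT 1, 47.9 in WT 2, 106 in R111A 1 and 139 in R111A 2 (log2 fold change 1.40, adjusted p = 0.000169 in limma). It rose while the catalytic subunit Atp6v1a fell, and the ratio of Atp6v1d to Atp6v1a was 2.93 and 3.52 in WT 1 and WT 2 and 15.0 and 14.5 in R111A 1 and R111A 2.

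Lower genes of the wider set included more hydrolases and a sorting adaptor. Ppt2, a thioesterase of the lysosome, was at 7.54 FPKM in WT 1, 9.41 in WT 2, 2.19 in R111A 1 and 2.55 in R111A 2 (log2 fold change -1.49, adjusted p = 0.000119 in limma). Lipa, the acid lipase, was at 8.59 FPKM in WT 1, 8.50 in WT 2, 3.82 in R111A 1 and 3.01 in R111A 2 (log2 fold change -1.12, adjusted p = 0.000435 in limma). Gga2, an adaptor that sorts hydrolase receptors at the Golgi, was at 7.20 FPKM in WT 1, 8.30 in WT 2, 2.66 in R111A 1 and 2.17 in R111A 2 (log2 fold change -1.36, adjusted p = 0.000159 in limma). In all 3 both R111A libraries were below both WT libraries, and the calls of these 8 genes were kept under all 13 alternatives.

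Markers of the sorted cells and of other cells were read as levels. The 8 markers of CD4+ T cells summed to 2019, 2009, 1740 and 1600 FPKM in WT 1, WT 2, R111A 1 and R111A 2, with 1 called higher and 4 lower. Their most abundant gene was Cd3g, at 454 FPKM in WT 1, 465 in WT 2, 289 in R111A 1 and 313 in R111A 2. Cd4, the defining marker, fell and was at 158 FPKM in WT 1, 131 in WT 2, 70.7 in R111A 1 and 51.4 in R111A 2 (log2 fold change -1.24, adjusted p = 0.000568 in limma), with the call kept under all 13 alternatives. The lower calls of Cd5 and Lck were lost under 9 and 7 of them, among these without WT 1, WT 2 and R111A 2, at adjusted p of up to 0.348 and 0.397. The higher call, of Cd3d, was lost with TPM (log2 fold change 0.04, adjusted p = 0.811 in limma, from 0.00386 to 0.811 over the alternatives), without WT 1 and without WT 2. TPM also called Cd3e (-0.41) and Cd28 (-0.73) of this list lower, where 51.8% of all genes tested were called lower. Markers of the labelled cell type were thus present in each library, at lower sums in R111A libraries. The 6 markers of regulatory T cells summed to 389, 407, 200 and 211 FPKM, with 3 called lower. With TPM, where 51.8% of all genes tested were called lower, all 6 of these markers were. The most abundant of them in WT libraries was Tnfrsf18, at 192 FPKM in WT 1, 211 in WT 2, 57.4 in R111A 1 and 62.4 in R111A 2, and in R111A libraries Il2ra, at 140 FPKM in WT 1, 136 in WT 2, 127 in R111A 1 and 129 in R111A 2. Foxp3 was at 11.3 FPKM in WT 1, 8.78 in WT 2, 2.86 in R111A 1 and 1.86 in R111A 2 (log2 fold change -1.72), called lower under all 13 alternatives. The 9 dendritic-cell markers summed to 39.4, 41.2, 42.9 and 38.7 FPKM, none of the 5 tested with limma was called, and Cd74 was the most abundant, at 19.1 FPKM in WT 1, 17.3 in WT 2, 21.4 in R111A 1 and 15.1 in R111A 2. Zbtb46 was at 1.36 FPKM in WT 1, 0.98 in WT 2, 1.83 in R111A 1 and 1.84 in R111A 2. Its log2 fold change was 0.39, and median-of-ratios factors, the replicate block and eBayes without trend called it higher. With no filter, Itgax was called higher and Siglech lower, both under 0.5 FPKM in every library. Itgax, an integrin of dendritic cells and some macrophages, was at 0 FPKM in WT 1, 0 in WT 2, 0.36 in R111A 1 and 0.41 in R111A 2, and Siglech, a receptor of plasmacytoid dendritic cells, at 0.20 FPKM in WT 1, 0.26 in WT 2, 0 in R111A 1 and 0 in R111A 2.

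For the remaining lists, the sums of the R111A libraries lay above those of the WT libraries. The 8 B-cell markers summed to 2.23, 1.10, 5.33 and 4.61 FPKM, with 2 called higher, and were led by Cd79b in WT libraries, at 1.15 FPKM in WT 1, 0.24 in WT 2, 1.51 in R111A 1 and 1.71 in R111A 2, and by Cd79a in R111A libraries, at 0.32 FPKM in WT 1, 0.24 in WT 2, 2.99 in R111A 1 and 2.37 in R111A 2. The call of Cd79a was kept under all 12 alternatives that tested it, and that of Cd79b was lost under 7 of its 12, among them TPM, quantile normalization and 3 of the 4 that left out a library, at adjusted p of up to 0.384. The 8 markers of NK or CD8+ T cells summed to 9.96, 8.94, 26.2 and 25.1 FPKM, with 3 called higher and 1 lower. The most abundant of these in WT libraries was Cd8b1, at 7.21 FPKM in WT 1, 6.56 in WT 2, 3.86 in R111A 1 and 4.39 in R111A 2, whose lower call was lost without WT 1, and in R111A libraries Klrd1, at 1.00 FPKM in WT 1, 0.40 in WT 2, 12.1 in R111A 1 and 13.6 in R111A 2. Klrk1 and Klrb1c of that list were called higher too with no filter, both under 1 FPKM in every library. The 7 erythroid and platelet markers summed to 0.94, 0.75, 22.5 and 22.1 FPKM, with 2 called higher, and with no filter Ppbp too. Their most abundant gene, Hba-a1, was at 0.66 FPKM in WT 1, 0.44 in WT 2, 12.3 in R111A 1 and 11.7 in R111A 2, a value that is uncertain because of a nearly identical gene copy, and Hbb-bs and Pf4 were listed at 0 in every library. Itga2b, an integrin of platelets and their precursors, was at 0.28 FPKM in WT 1, 0.31 in WT 2, 9.92 in R111A 1 and 10.2 in R111A 2 (log2 fold change 3.10, adjusted p = 3.37e-06 in limma), called under all 13 alternatives. The part of any of these cells in the results was not tested.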

How the data were processed

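The deposited table of FPKM, made by the authors, was used as given. The authors filtered reads, aligned them to mm10 with Bowtie2 2.4.4, quantified genes with RSEM 1.2.28 and tested counts with DESeq2. All 4 value columns were used and 0 were left out. The 9831 of 16142 genes whose mean reached 1 FPKM were fitted with limma 3.58.1 (lmFit, eBayes with trend) in R 4.3.3 on log2(FPKM + 1), across the whole table, with Benjamini-Hochberg adjustment over all genes tested. A call needed an adjusted p below 0.05, and the stricter rule also a 2-fold change. The added 1 FPKM makes the log2 fold changes of genes with low values smaller. Tables and figures were made with Python 3.11.15, numpy 2.4.6, pandas 2.3.3 and matplotlib 3.10.9.

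The members and lists were chosen with earlier results of these data known. Values in each library were given for members past both thresholds, Tfeb and Tfe3, the most abundant member of each class and all ATG8-family members. Of the wider lists, genes past both thresholds and averaging 5 FPKM or more were given, at most 5 in each direction by fold change. Members were matched to RefSeq genes (51 of 51) and promoters (42 of 51) by NCBI gene number.

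The 13 alternatives were pseudocounts of 0.1 and 5 FPKM, no filter, a filter at a mean of 5 FPKM, TPM rescaling, quantile normalization, median-of-ratios factors, a replicate block (replicate number as a model term), eBayes without trend, and leaving out each of the 4 libraries.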

Additional observations from a re-analysis of the deposited data

How the results depend on the processing

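Of the 23 called members, 12 kept their call under every alternative that tested them, and 0 changed sign. Rescaling to TPM gave 16 lower members, 1 higher and 4 lower members past 2-fold, 21 higher and 49 lower wider genes, and a members' median of -0.0809. The median was 0.32 with median-of-ratios factors, 0.33 with quantile normalization and 0.19 with a pseudocount of 5 FPKM. A pseudocount of 0.1 FPKM gave 4 higher and 2 lower members past 2-fold, and the filter at a mean of 5 FPKM gave 14 lower wider genes. Without single libraries, higher members ran from 9 to 22 and lower members from 3 to 13, members past 2-fold from 2 to 4 higher and from 1 to 2 lower, and wider genes from 22 to 47 higher and from 10 to 30 lower.

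With the replicate block, higher members numbered 17 and lower members 11 (past 2-fold, 3 and 1), wider genes 40 and 25, and none of the members' calls was lost. The labels share only a replicate number, and over 9831 genes the deviations of WT 1 and R111A 1 from their group means correlated with r = 0.11, from only 2 pairs.

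TPM turned the sign of 11 uncalled members, to -0.0440 (Lamp1), -0.0217 (Npc1), -0.19 (Hexa), -0.11 (Npc2), -0.0475 (Atp6v0d1), -0.29 (Atp6ap1), -0.20 (Atp6ap2), -0.0809 (Becn1), -0.10 (Atg5 and Atg16l1) and -0.28 (Dram2), since it lowers every R111A value relative to WT. Gla was 0.0197 with median-of-ratios factors and Atg3 0.0252 with quantile normalization, and the cause was not tested. Leaving out single libraries gave -0.36 to 0.27 for Gla, -0.0142 to 0.10 for Atp6ap1 and -0.20 to 0.25 for Dram2. The table gives no read counts, so the limit that depth sets on genes near 1 FPKM is unknown.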
